A study of Mus musculus with 12 samples.

Results

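The 31 genes described here encode the enzymes of cholesterol synthesis, the SREBP transcription system that sets their level, a carrier and a pair of exporters of sterol, and the core enzymes of fatty acid synthesis. They were taken by name from a list and make up 31 of the 32285 genes in the 6 single-cell RNA libraries. Of them, 18 are sterol synthesis enzymes, 5 belong to SREBP control, 3 move or export sterol and 5 make fatty acids.

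Cells build cholesterol from acetyl-CoA through mevalonate, isoprenoids, squalene and lanosterol. When membranes of the endoplasmic reticulum run low in sterol, SCAP escorts the SREBP proteins to the Golgi, where they are cut and released to switch on these enzymes, while INSIG proteins hold them back when sterol is plentiful. When oxysterols rise, the liver X receptors (LXR) induce the exporters ABCA1 and ABCG1 and the SREBP-1 gene. T cells that have been activated and divide are known to raise SREBP activity, and phosphoinositide 3-kinase signalling through mTORC1 is a known route to it.

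In 3 CAL-101 mice the transferred T cells had been kept before transfer with CAL-101, the drug idelalisib, which blocks the delta form of phosphoinositide 3-kinase. In 3 control mice they had been kept with vehicle. All 6 were Rag1-knockout hosts (B6.129S7-Rag1tm1Mom/J), which form no mature T or B cells of their own. All bore an intradermal B16-F10 melanoma and received Pmel Thy1.1 CD8+ T cells, which recognise a melanocyte antigen. Live CD45.2+ cells of the tumour were sorted and sequenced, so the natural killer (NK) and myeloid cells were host cells that had not been in the drug culture.

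The 6 libraries held 45477 cells, with 6152 to 9147 cells and 75716841 to 97933109 RNA UMIs (unique molecular identifiers, 1 per captured transcript) each. Pairs of libraries shared 8 to 31 cell barcodes. The deposited T cell labels, merged, covered 32861 cells and the NK label 11687 cells. Both labels matched their defining markers: 10 T cell markers summed to 10834 to 13101 CPM (UMIs per 1000000 RNA UMIs of the summed cells) in the T class and 924 to 1270 CPM in the NK class. The 10 NK markers summed to 439 to 839 CPM in the T class and 4918 to 5363 CPM in the NK class. Within the T class, 2507 cells lay in deposited clusters where most other cells were labelled NK. NK cells were fewer in the CAL-101 mice, with 571 to 2047 per mouse against 2163 to 3498 in the control mice. Control mouse 2 stood apart from the other control mice in sterol gene levels. The counts of genes called in T cells, NK cells and clusters are therefore given with and without it, a choice made after these values were seen. Leaving out a control mouse with high enzyme levels favours calls of higher genes, so the counts without it are a description. Replicates of a group differed by more than counting noise (chi-square per degree of freedom 5.06 to 45.3), and p-values measure the spread between these mice only. Because 3′ UMI capture differs between transcripts, levels are compared within a gene and not between genes.

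Promoter stretches show the DNA letters through which these 2 control systems are known to act. They come from RefSeq (GRCm38.p6, the same build as mm10), 24 of the 31 genes had an entry, and bases are numbered from the transcription start. In the Hmgcs1 stretch (chr13:119690101-119690330, plus strand, bases -250 to -21), capitals mark TCACNCCAC, a form of the sterol regulatory element bound by SREBP, and CCAAT, the box of the cofactor NF-Y that works beside it, on either strand. In the Dhcr7 stretch, from 1 of its 3 starts in the table (chr7:143830094-143830213, plus strand, bases -120 to -1) and the Mvk stretch (chr5:114444149-114444268, plus strand, bases -120 to -1), capitals mark CCAAT on either strand. These 3 are shown because they belong to enzymes whose levels differed between the groups.
Hmgcs1: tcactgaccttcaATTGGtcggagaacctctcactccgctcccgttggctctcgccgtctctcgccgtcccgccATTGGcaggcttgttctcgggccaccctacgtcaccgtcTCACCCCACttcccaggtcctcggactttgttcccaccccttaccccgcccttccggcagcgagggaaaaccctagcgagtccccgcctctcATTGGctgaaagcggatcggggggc
Dhcr7: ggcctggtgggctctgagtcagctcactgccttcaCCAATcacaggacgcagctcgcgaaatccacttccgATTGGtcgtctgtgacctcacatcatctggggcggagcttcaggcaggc
Mvk: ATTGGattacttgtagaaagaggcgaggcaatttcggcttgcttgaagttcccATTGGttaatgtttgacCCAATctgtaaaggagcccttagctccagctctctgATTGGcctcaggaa

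The letters TCACNCCAC stood in 408 of 32851 windows of 300 bases around mouse gene starts (1.24%) and, among the 24 genes with an entry, only in that of Hmgcs1. CCAAT stood in 37.4% of all windows and in 21 of the 32 windows of these genes, which belong to 20 of the 24. The motifs do not overlap each other in the printed stretches. The element of the liver X receptors is shown in the next 3 stretches, on the minus strand, with the element in capitals: Abca1 (chr4:53159928-53159982, bases -87 to -33), Srebf1 (chr11:60210619-60210673, bases -202 to -148) and Fasn (chr11:120824738-120824792, bases -245 to -191).
Abca1: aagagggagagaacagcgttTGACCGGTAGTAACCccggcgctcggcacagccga
Srebf1: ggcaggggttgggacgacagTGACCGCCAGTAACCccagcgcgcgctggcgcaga
Fasn: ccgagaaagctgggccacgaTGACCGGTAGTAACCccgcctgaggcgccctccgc

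The element, with its spacer bases left free, occurred in 3 of the 32851 windows, those of the 3 genes printed. The search was written after the known elements of these genes, so that match is a description and no finding. All 3 are known LXR targets, and their values are set side by side with the fatty acid enzymes below.

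Across the sterol enzymes, T cells of CAL-101 mice had 2 enzymes higher, 1 lower and 15 that did not pass the test. The higher ones were Fdft1 (squalene synthase, the first enzyme committed to sterols) and Dhcr7 (the reductase of the last step to cholesterol). The lower one was Mvk (mevalonate kinase, early in the pathway). All 3 changes were under 0.4 on the log2 scale. The mix of T cell clusters differed between the groups. Deposited cluster 5, mostly T-labelled cells, held 886, 1393 and 1271 cells in CAL-101 mice, against 179, 92 and 107 in control mice. Cluster 3, also mostly T-labelled, held 174, 685 and 427 cells against 1897, 823 and 1956. Cluster 2, also mostly T-labelled, held 23871332, 40395677 and 41679054 RNA UMIs in CAL-101 mice, against 30684139, 21503179 and 23787138 in control mice. The whole T class held 53687665, 87764290 and 77399145 RNA UMIs, against 78902143, 54422119 and 70183362. Relative to these totals, cluster 2 was larger in every CAL-101 mouse than in every control mouse. Its enzyme and cell-cycle sums were the highest of the clusters, as given below. With all 6 mice, Mvk was called lower in cluster 2, and Fdft1 and Dhcr7 in no single cluster. The part of this mix in the T cell results was not tested.

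Fdft1 (ENSMUSG00000021273, chromosome 14) had 20.8, 22.1 and 21.7 CPM in the T cells of CAL-101 mice 1, 2 and 3, against 17.1, 19.0 and 17.5 CPM in those of control mice 1, 2 and 3. All CAL-101 mice lay above all control mice, and the log2 fold change was 0.23 (SE 0.07, adjusted p = 0.0447, edgeR quasi-likelihood test over all genes with Benjamini-Hochberg adjustment). Fdft1 overlaps Ctsb and another locus in the annotation, so its count is uncertain if reads were not assigned by strand. Dhcr7 (ENSMUSG00000058454, chromosome 7) had 13.04, 12.1 and 12.3 CPM in CAL-101 mice, against 8.90, 10.3 and 9.65 CPM in control mice. The groups did not overlap, and Dhcr7 was higher in CAL-101 mice by 0.34 on the log2 scale (SE 0.08, adjusted p = 0.0232, edgeR). Its promoter stretch above held no sterol regulatory element in the letters searched. Mvk (ENSMUSG00000041939, chromosome 5) had 10.6, 10.8 and 10.7 CPM in CAL-101 mice, against 11.9, 14.9 and 13.3 CPM in control mice. The 3 CAL-101 values were nearly equal and all below the control values, with a log2 fold change of -0.36 (SE 0.09, adjusted p = 0.0278, edgeR).

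These 3 calls were 3 of the 31 genes tested in T cells, 2 higher and 1 lower. Of all 16734 genes tested, 9.46% were called higher and 9.63% lower, 19.1% in all. The genes listed were thus called no more often than genes at large. Non-overlap between the groups was similar: 9 genes were higher in every CAL-101 mouse than in every control mouse (24.5% of all genes were), namely Fdft1, Sqle, Lss, Tm7sf2, Msmo1, Hsd17b7, Sc5d, Dhcr7 and Srebf1. A further 3, Mvk, Abca1 and Abcg1, were lower in every CAL-101 mouse (15.1% of all genes were). The median log2 fold change was 0.10 over the 31 genes and 0.002 over all genes, and 14 of the 18 enzymes had a positive value. In T-labelled cells of deposited clusters 1 to 5 alone, Dhcr7 was the single gene called higher (0.31, adjusted p = 0.0422; 8.41% of all genes were) and Mvk the single one lower (-0.38, adjusted p = 0.0304; 8.92% of all genes were). None of the 3 calls survived leaving out each mouse in turn. Fdft1 missed the threshold without CAL-101 mouse 1 (0.26, adjusted p = 0.0602), CAL-101 mouse 2 (0.21, 0.104), CAL-101 mouse 3 (0.22, 0.135), control mouse 1 (0.20, 0.157) or control mouse 3 (0.21, 0.158), all by edgeR. Dhcr7 missed it without CAL-101 mouse 1 (0.31, adjusted p = 0.0628), CAL-101 mouse 3 (0.34, 0.0729), control mouse 1 (0.28, 0.0833) or control mouse 3 (0.33, 0.0866). Mvk missed it without CAL-101 mouse 1 (-0.35, adjusted p = 0.0672), CAL-101 mouse 2 (-0.36, 0.061), CAL-101 mouse 3 (-0.37, 0.0796) or control mouse 3 (-0.37, 0.085).

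**Figure D1:**
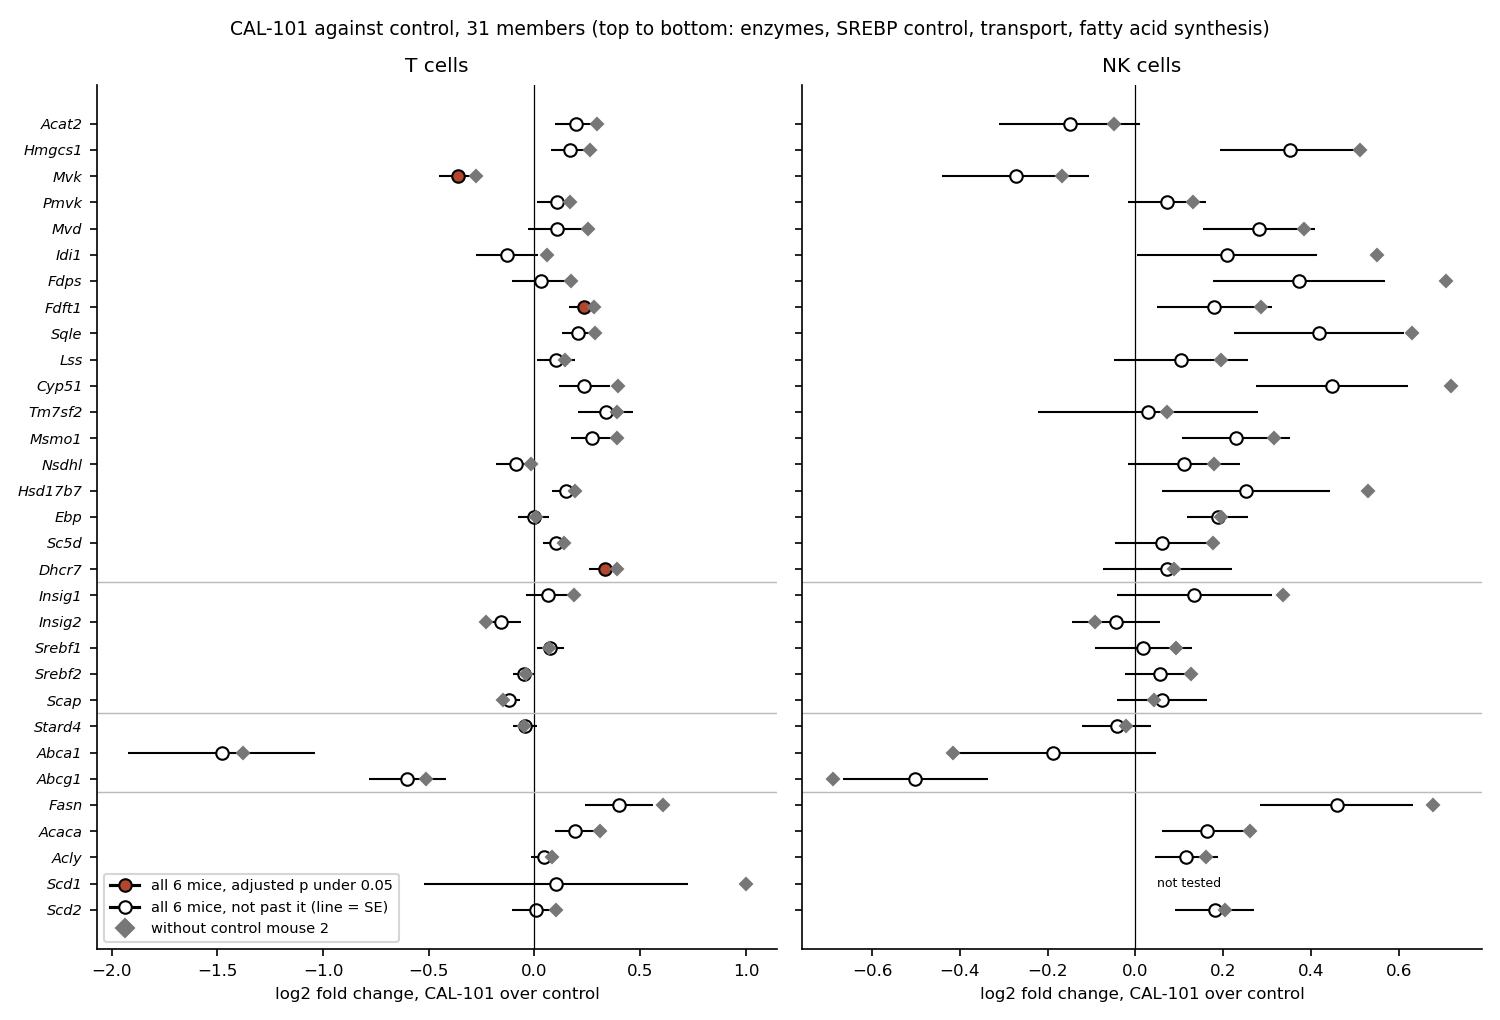
Log2 fold changes of the 31 genes, CAL-101 over control, in T cells (left) and NK cells (right), from edgeR on summed UMIs of 6 mice; lines are standard errors, filled circles passed an adjusted p of 0.05 and diamonds give the value without control mouse 2. In T cells Fdft1 and Dhcr7 lie right of zero and Mvk left of it among the filled circles, no circle is filled in NK cells, and the horizontal scales of the panels differ.

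The number of enzymes called depended on the mice included, and leaving out control mouse 2 gave the most calls. The 18 enzymes summed to 559, 535 and 564 CPM in the T cells of CAL-101 mice 1, 2 and 3, against 459, 573 and 485 CPM in those of control mice 1, 2 and 3. The sum in control mouse 2 lay above all other values, while the other control mice lay below all CAL-101 mice. In NK cells the enzyme sums were 468, 477 and 470 CPM in CAL-101 mice, against 336, 469 and 359 CPM in control mice, with control mouse 2 again beside the CAL-101 mice. Without control mouse 2, 9 of the 31 genes were higher in T cells of CAL-101 mice (11.3% of all genes were) and 1, Mvk, was lower (-0.28, adjusted p = 0.0399, edgeR; 11.2% of all genes were). The 9 were Acat2, Hmgcs1, Fdft1, Sqle, Cyp51, Msmo1, Dhcr7, Fasn and Acaca, with the largest log2 fold change in Fasn (0.61, adjusted p = 0.0049). In NK cells without that mouse 7 genes were higher, Hmgcs1, Idi1, Fdps, Sqle, Cyp51, Hsd17b7 and Fasn (6.49% of all genes were), and Abcg1 was lower (-0.69, adjusted p = 0.00411; 4.68% of all genes were). Control mouse 2 also had the most NK cells of the 6 and, in its T class, the highest sum of NK markers (839 CPM). The part of either in its sterol gene levels was not tested. Monocyte and macrophage markers in the T class, all 10 of them detected, summed to 570, 844 and 715 CPM in CAL-101 mice, against 671, 462 and 634 CPM in control mice. The sums overlapped, 3 of the 8 markers tested were called higher in CAL-101 mice and none lower, and their part in the T cell results was not tested.

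Cell-cycle genes moved with the group as well in the summed T and NK classes. The 16 cell-cycle genes summed to 2471, 2480 and 2719 CPM in T cells of CAL-101 mice, against 2064, 2090 and 1916 CPM in those of control mice. Of these 16 genes, 11 were called higher, where 9.46% of all genes were, and none lower. In NK cells their sums were 1392, 1342 and 1373 CPM in CAL-101 mice, against 808, 1060 and 783 CPM in control mice, with 12 called higher (2.97% of all genes were). Control mouse 2 had the highest cell-cycle sum of the control mice in both classes, by a small margin in T cells and a larger one in NK cells. In both classes it lay below all CAL-101 mice. Within single T cell clusters the rise was uneven. In deposited clusters 1, 2, 3, 4 and 5, 9, 1, 0, 1 and 1 of the 16 genes were called higher. Of all genes 5.54%, 5.89%, 3.27%, 3.53% and 2.45% were called higher there. In cluster 5, 2 of the 16 were called lower (2.78% of all genes were). The part of cell division in the enzyme levels was not tested.

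**Figure D2:**
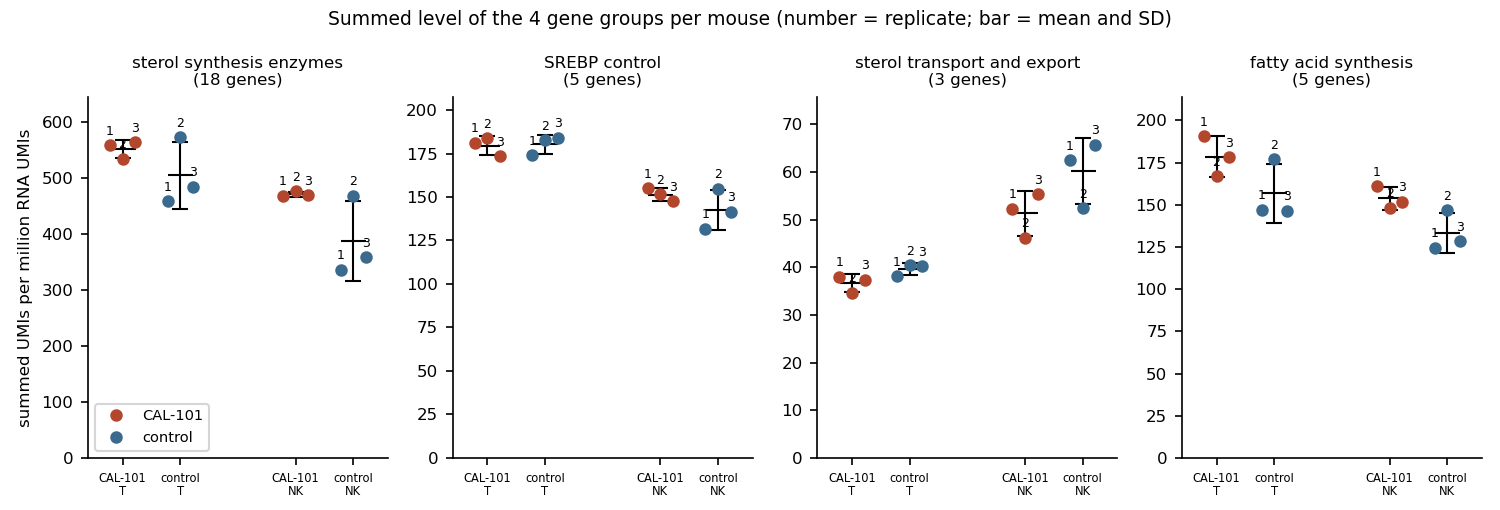
Summed level of each gene group per mouse, in CPM, in T and NK cells, with CAL-101 mice left of control mice; numbers beside points are the replicates and bars give mean and SD (n = 3 mice). In the enzyme and fatty acid panels control mouse 2 sits close to or among the CAL-101 mice, above control mice 1 and 3.

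In NK cells, 30 of the 31 genes could be tested and none passed (4.89% of all 14028 genes did). By edgeR 4 had an unadjusted p under 0.05: Cyp51, Ebp, Fasn and Abcg1. DESeq2 called Abcg1 alone, as lower (3.17% of all genes were). Cyp51, the lanosterol demethylase, had 56.1, 55.3 and 48.7 CPM in NK cells of CAL-101 mice, against 29.7, 50.7 and 33.4 CPM in those of control mice. Control mouse 2 lay within the CAL-101 range and the other control mice below it (log2 fold change 0.45, SE 0.17, adjusted p = 0.168, edgeR). Groups did not overlap for 3 genes, Mvd, Ebp and Scd2, each higher in CAL-101 mice (16.3% of all genes were), and for none lower (10.5% of all genes were). Of the 30 genes, 24 had a positive value, with a median of 0.11 against -0.001 over all genes. Melanoma markers in the NK class, all 8 of them detected, summed to 98.1, 21.6 and 11.1 CPM in CAL-101 mice, against 12.6, 9.90 and 13.8 CPM in control mice, and 3 of the 6 tested were called higher. The 5 red cell markers, all detected, summed to 455, 0.726 and 60.2 CPM in CAL-101 mice, against 71.8, 2.16 and 0.810 CPM in control mice, and none was called. Both sums overlapped between the groups and were highest in CAL-101 mouse 1, and their part in the NK values was not tested.

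The difference between the CAL-101 effect in T cells and that in NK cells was tested within mice with limma, and none of 30 genes passed (0.173% of all 16800 genes did). At an unadjusted p under 0.05 there were 3: Idi1, Acat2 and Ebp. The lowest adjusted p, that of Idi1, was 0.311 (difference of log2 fold changes -0.37, T minus NK). In monocytes, 13 genes could be tested and none passed, with none at an unadjusted p under 0.05 by edgeR, and 0 of all 5906 genes passed. Monocyte-labelled cells numbered 34 to 101 per mouse, and melanoma markers summed to 1273 to 8417 CPM in them, so these sums did not hold monocyte RNA alone.

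The SREBP control genes gave no call between the groups in either class. Srebf1, which encodes SREBP-1, had 15.7, 14.3 and 15.0 CPM in T cells of CAL-101 mice, against 14.2, 13.7 and 13.6 CPM in those of control mice. The groups just failed to overlap, with a log2 fold change of 0.07 (SE 0.07, adjusted p = 0.457, edgeR). Srebf1 overlaps Rai1 in the annotation, which makes its count uncertain in the same way as that of Fdft1. Srebf2, which encodes SREBP-2, the main activator of cholesterol synthesis, had 97.3, 98.9 and 92.4 CPM in CAL-101 mice, against 93.1, 98.7 and 99.3 CPM in control mice. Its groups overlapped throughout (-0.05, SE 0.05, adjusted p = 0.523). The level of these messages says nothing of the cutting and release of the proteins, which was not measured.

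Scap, the escort, had 27.6, 27.0 and 26.1 CPM in T cells of CAL-101 mice, against 28.7, 27.4 and 29.3 CPM in those of control mice (-0.12, SE 0.05, adjusted p = 0.151, edgeR). CAL-101 mouse 1 overlapped control mouse 2 by a small margin. Insig1, an anchor in the endoplasmic reticulum and itself an SREBP target, had 25.9, 25.9 and 24.1 CPM in CAL-101 mice, against 19.9, 27.4 and 23.3 CPM in control mice (0.07, SE 0.11, adjusted p = 0.708). The highest and the lowest value of Insig1 were both in control mice. Insig2, the second anchor, had 14.7, 17.7 and 15.8 CPM in CAL-101 mice, against 18.3, 15.6 and 18.5 CPM in control mice (-0.16, SE 0.09, adjusted p = 0.271). Its groups overlapped through control mouse 2.

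In NK cells the 5 SREBP control genes had log2 fold changes from -0.04 to 0.13. Srebf1 had 14.9, 16.5 and 15.5 CPM in NK cells of CAL-101 mice, against 13.9, 16.4 and 14.3 CPM in those of control mice. Srebf2 had 80.8, 76.2 and 73.7 CPM in CAL-101 mice, against 67.7, 79.9 and 69.8 CPM in control mice. Scap had 22.9, 19.4 and 22.9 CPM in CAL-101 mice, against 18.8, 20.2 and 22.7 CPM in control mice. The groups overlapped for all 3. Insig1 had 19.8, 22.5 and 16.3 CPM in NK cells of CAL-101 mice, against 13.5, 21.5 and 16.3 CPM in those of control mice. Insig2 had 16.7, 17.1 and 19.3 CPM in CAL-101 mice, against 17.98, 16.8 and 18.5 CPM in control mice. Both overlapped, and the smallest adjusted p of the 5 was 0.709, that of Insig1 (edgeR).

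In T cells the sterol exporters had the largest log2 fold changes of the listed genes, though neither passed the edgeR test with all mice. Abca1 (ENSMUSG00000015243, chromosome 4:53030789-53159988, minus strand) moves cholesterol out of the cell to lipid-poor apolipoprotein, and Abcg1 (ENSMUSG00000024030, chromosome 17) moves it to lipoprotein particles. Abca1 had 0.60, 0.14 and 0.30 CPM in T cells of CAL-101 mice, from 32, 12 and 23 UMIs, against 0.63, 1.01 and 1.01 CPM in those of control mice, from 50, 55 and 71 UMIs. All CAL-101 mice lay below all control mice, CAL-101 mouse 1 by a small margin, and the log2 fold change of -1.48 missed the threshold (SE 0.44, adjusted p = 0.0511, edgeR). Abcg1 had 6.07, 3.58 and 4.53 CPM in T cells of CAL-101 mice, against 6.57, 7.79 and 6.48 CPM in those of control mice. The groups did not overlap and the test was again missed (-0.60, SE 0.18, adjusted p = 0.0525). DESeq2 called both lower (adjusted p = 0.0111 for Abca1 and 0.00602 for Abcg1; 10.8% of all genes were), as did edgeR without CAL-101 mouse 1 (-2.06, adjusted p = 0.015 for Abca1; -0.81, adjusted p = 0.0141 for Abcg1).

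NK markers moved with the exporters in the T class. Both exporters were higher in NK cells than in T cells, as given below, and the 10 NK markers summed to 612, 484 and 439 CPM in the T class of CAL-101 mice, against 652, 839 and 732 CPM in that of control mice, with none of the 10 at 0. Restricted to T-labelled cells of deposited clusters 1 to 5, Abcg1 had 4.63, 3.15 and 3.91 CPM in CAL-101 mice, against 5.26, 4.96 and 4.14 CPM in control mice (-0.35, adjusted p = 0.172, edgeR). Abcg1 in these cells overlapped between the groups through CAL-101 mouse 1. Abca1 had 17, 6 and 5 UMIs in those cells of CAL-101 mice, against 16, 5 and 9 UMIs in control mice, too few to be tested. In NK cells themselves Abca1 had 5.44, 5.44 and 5.97 CPM in CAL-101 mice, against 6.01, 4.48 and 8.45 CPM in control mice (-0.19, SE 0.23, adjusted p = 0.690). Abcg1 in NK cells had 20.2, 16.3 and 21.6 CPM in CAL-101 mice, against 31.1, 20.4 and 30.5 CPM in control mice (-0.50, SE 0.17, adjusted p = 0.112). Only CAL-101 mouse 3 exceeded a control value, that of control mouse 2. The part of NK RNA in the exporter values of the T class was not tested. Stard4, a carrier of sterol between membranes, differed by -0.05 in T cells and -0.04 in NK cells on the log2 scale (adjusted p = 0.608 and 0.802, edgeR).

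Abca1 was lower in cluster 10 of CAL-101 mice, the difference between the groups with the smallest adjusted p among the listed genes. Deposited cluster 10 held 414 neutrophil-labelled and 232 monocyte-labelled cells beside 80 others. There Abca1 had 18.3, 21.2 and 37.7 CPM in CAL-101 mice, from 4, 10 and 16 UMIs, against 114, 110 and 169 CPM in control mice, from 162, 30 and 93 UMIs. Every CAL-101 mouse lay far below every control mouse, with a log2 fold change of -2.38 (SE 0.33, adjusted p = 0.00354, edgeR). Of all 5310 genes tested in cluster 10, 3.24% were called lower, and Abca1 was the single call among 11 listed genes tested. Leaving out each mouse in turn gave -2.79 to -2.14, with every adjusted p under the threshold, and DESeq2 gave an adjusted p of 8.92e-06.

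T cell markers moved with this result: their sum in cluster 10 was 7044, 5351 and 7095 CPM in CAL-101 mice, against 3246, 2666 and 2476 CPM in control mice. Neutrophil markers summed to 42768, 22534 and 24737 CPM in CAL-101 mice, against 48818, 71825 and 46543 CPM in control mice. Cells with other labels supplied 129673 of 219064, 203477 of 472258 and 223855 of 424377 RNA UMIs of cluster 10 in CAL-101 mice. In control mice they supplied 391112 of 1422996, 62164 of 271619 and 113724 of 551644. That share was larger in every CAL-101 mouse, and its part in the Abca1 value of the whole cluster was not tested. Among the neutrophil- and monocyte-labelled cells alone, a choice made after the data were seen, T cell markers overlapped at 1354, 1938 and 2045 CPM in CAL-101 mice, against 1526, 936 and 1859 CPM in control mice. In those cells Abca1 had 44.7, 33.5 and 69.8 CPM in CAL-101 mice, against 151, 138 and 212 CPM in control mice. The groups again did not overlap, and the log2 fold change was -1.73 (adjusted p = 0.0422, edgeR), from 22 to 79 cells in each CAL-101 mouse and 49 to 294 in each control mouse. The Abca1 UMIs behind these values can be no more than the few of the whole cluster given above. Neutrophil markers in these cells were lowest in CAL-101 mice 2 and 3, and the part of the mix of neutrophils and monocytes was not tested. Abcg1 in cluster 10 had 59.3, 133 and 77.8 CPM in CAL-101 mice, against 129, 73.6 and 112 CPM in control mice, and the groups overlapped.

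**Figure D3:**
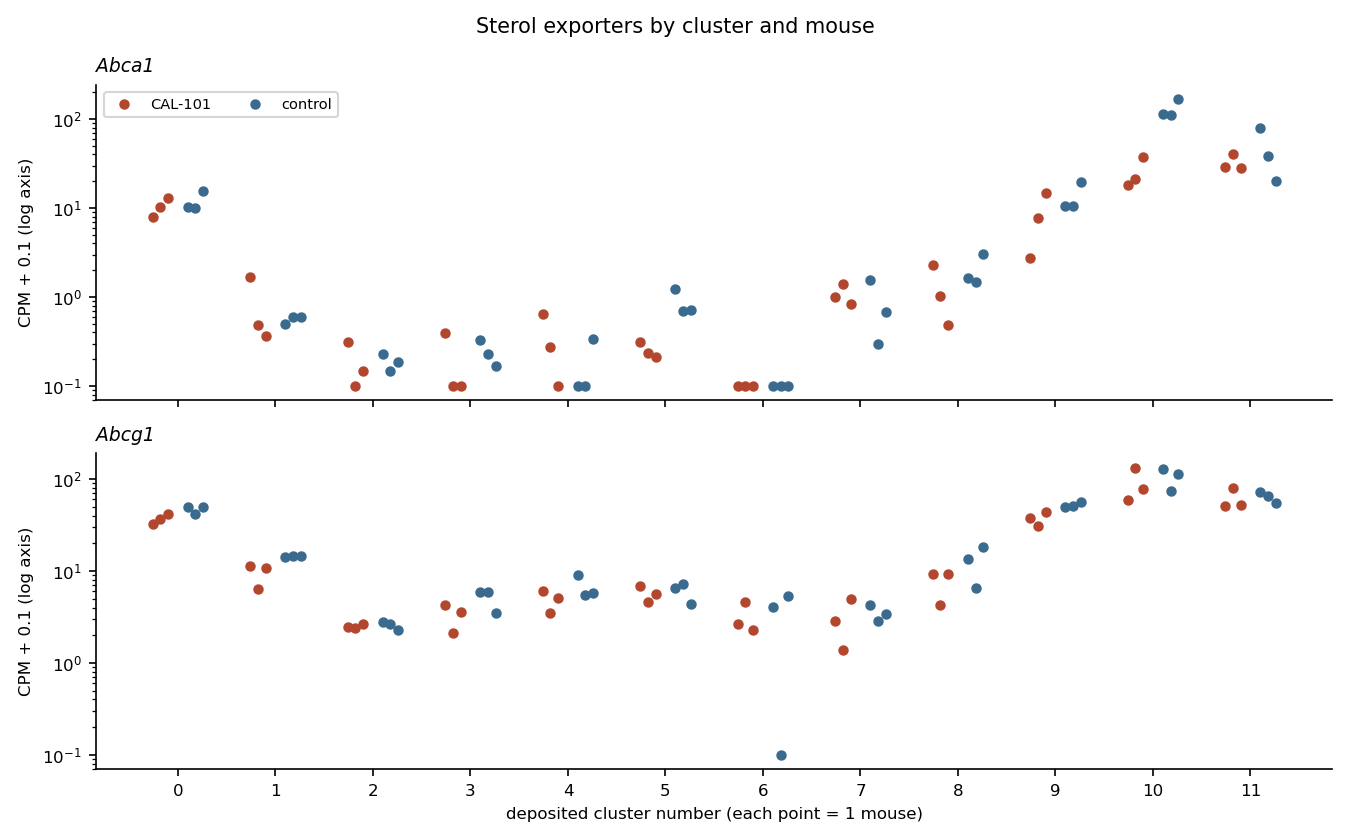
CPM of Abca1 (top) and Abcg1 (bottom) in each of deposited clusters 0 to 11, on log axes with 0.1 added so that a value of 0 sits at 0.1; each point is 1 mouse, CAL-101 left of control. In cluster 10 the CAL-101 mice lie at 18.3 to 37.7 CPM of Abca1, all below the control mice, while Abcg1 there overlaps between the groups.

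The fatty acid enzymes gave no call by edgeR in T or NK cells with all 6 mice. Fasn, fatty acid synthase, had 32.7, 25.9 and 29.9 CPM in T cells of CAL-101 mice, against 19.5, 27.7 and 18.2 CPM in those of control mice. Control mouse 2 alone overlapped the CAL-101 mice (0.40, SE 0.16, adjusted p = 0.117, edgeR). DESeq2 called Fasn higher at an adjusted p of 0.0403 (10.7% of all genes were). Acaca (acetyl-CoA carboxylase) and Acly (ATP citrate lyase), which supply the malonyl-CoA and acetyl-CoA for the synthase, had log2 fold changes of 0.19 and 0.05 in T cells (adjusted p = 0.201 and 0.658). Acaca overlaps Tada2a in the annotation. The 3 genes whose LXR element is printed above thus had T cell log2 fold changes of -1.48 (Abca1), 0.07 (Srebf1) and 0.40 (Fasn). None passed the threshold by edgeR with all mice, while DESeq2 called Abca1 lower and Fasn higher, as given above.

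Scd1 and Scd2 encode closely related stearoyl-CoA desaturases that introduce the double bond of oleate, so the split of reads between them is uncertain where their sequences match. Scd1 was almost undetected in lymphocytes, with 11, 8 and 11 UMIs in T cells of CAL-101 mice, against 4, 15 and 6 UMIs in those of control mice. In NK cells Scd1 had 3, 0 and 3 UMIs in CAL-101 mice, against 0, 6 and 3 UMIs in control mice, and was not tested. A difference in Scd1 was not detectable at this depth. Scd2 had 16.7, 13.8 and 15.2 CPM in T cells of CAL-101 mice, against 14.9, 16.7 and 12.8 CPM in those of control mice (0.01, SE 0.11, adjusted p = 0.979, edgeR). In NK cells Scd2 had 23.5, 20.5 and 23.9 CPM in CAL-101 mice, against 18.5, 20.3 and 19.99 CPM in control mice. The NK values of CAL-101 mice were all above those of control mice by a small margin (0.18, SE 0.09, adjusted p = 0.275).

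T cells differed from NK cells of the same mouse in 21 of 30 listed genes tested, with 16 higher and 5 lower in T cells. Calls were frequent over all genes too: 61.8% of all 15733 genes were called, 31.2% higher and 30.6% lower in T cells. Both directions were thus nearly equal over all genes, while the calls among the listed genes leaned to T cells. Higher in T cells were 10 of 18 sterol enzymes (Acat2, Hmgcs1, Pmvk, Idi1, Fdft1, Sqle, Cyp51, Nsdhl, Hsd17b7 and Dhcr7), the SREBP control genes Srebf2, Scap and Insig1, the carrier Stard4, and Fasn and Acaca. Lower in T cells were Abca1, Abcg1, Scd2, Sc5d and Msmo1.

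The largest ratios were those of Sqle, Idi1 and Fasn. Sqle, squalene epoxidase, averaged 27.0 ± 2.92 CPM in T cells and 13.7 ± 3.57 CPM in NK cells (SD, n = 6 mice each), a log2 ratio of 0.99 (SE 0.09, adjusted p = 1.04e-05, edgeR with mouse as a term). Idi1, the isomerase that makes the activated isoprene unit, averaged 53.7 ± 8.55 CPM in T cells and 29.4 ± 6.94 CPM in NK cells (0.87, SE 0.08, adjusted p = 1.48e-05). Fasn averaged 25.6 ± 5.76 CPM in T cells and 14.7 ± 3.77 CPM in NK cells (0.78, SE 0.05, adjusted p = 1.16e-06). All 16 cell-cycle genes were also higher in T cells, with a median log2 ratio of 1.15, and their part in these ratios was not tested. Thinned to 1600 UMIs per cell, 11 listed genes were higher and 4 lower in T cells. The share of all genes called after thinning was not counted, so these counts cannot be set against genes at large.

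Over the whole classes the exporters ran the other way. Abca1 averaged 0.614 ± 0.359 CPM in T cells and 5.97 ± 1.34 CPM in NK cells (-3.35, SE 0.32, adjusted p = 1.58e-05, edgeR). Abcg1 averaged 5.84 ± 1.52 CPM in T cells and 23.4 ± 6.03 CPM in NK cells (-2.02, SE 0.13, adjusted p = 1.12e-06). Both exporters were high in only some clusters of mostly NK-labelled cells. Abcg1 averaged 42.1 and 44.6 CPM in clusters 0 and 9 but 3.18 and 10.1 CPM in clusters 7 and 8. In the mostly T-labelled clusters 1 to 5 it averaged 2.44 to 11.8 CPM. Abca1 averaged 11.03 and 10.9 CPM in clusters 0 and 9, and 0.859 and 1.56 CPM in clusters 7 and 8. In clusters 1 to 5 it averaged 0.0864 to 0.606 CPM. Scd2 averaged 15.0 ± 1.58 CPM in T cells and 21.1 ± 2.12 CPM in NK cells (-0.51, SE 0.07, adjusted p = 0.000111). Sc5d, the lathosterol desaturase, was lower in T cells by a smaller ratio (-0.42, SE 0.05, adjusted p = 6.73e-05), as was Msmo1, which removes methyl groups after lanosterol (-0.18, SE 0.05, adjusted p = 0.0157). The value of Msmo1 turned to 0.20 after thinning (adjusted p = 0.0832).

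**Figure D4:**
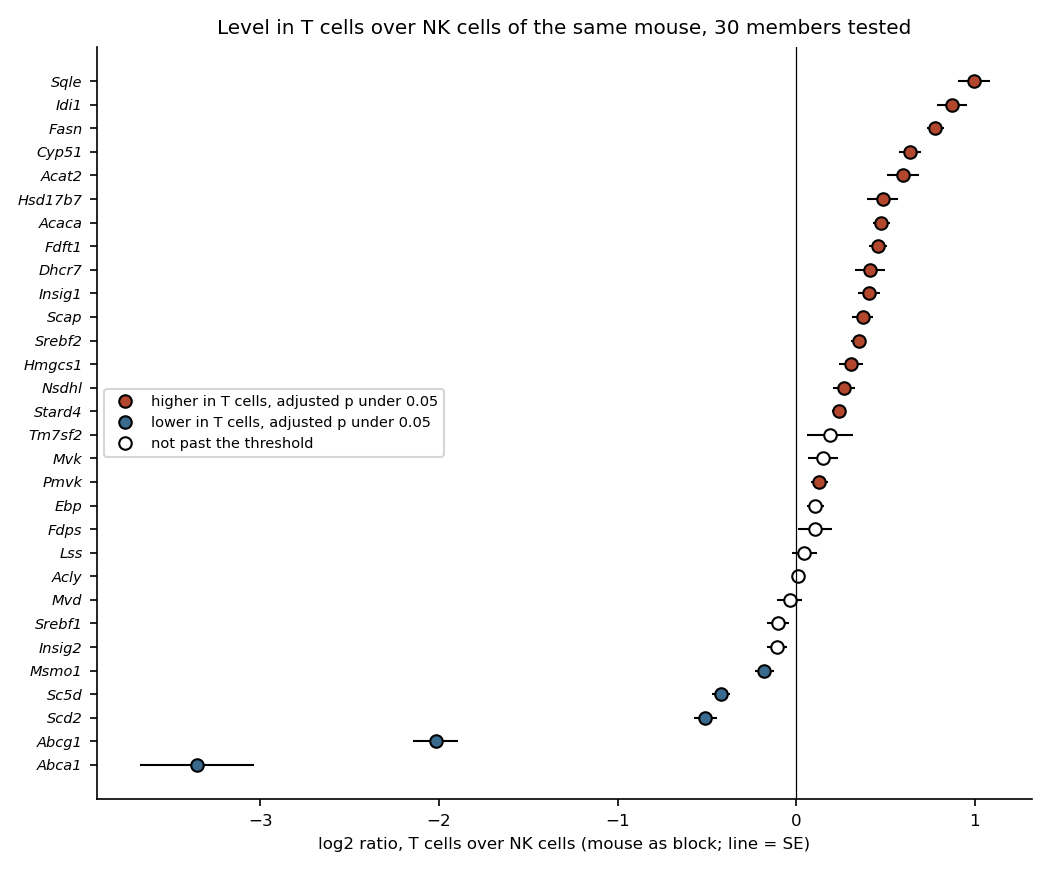
Log2 ratio of the level in T cells over that in NK cells of the same mice for 30 listed genes, ordered by ratio, from edgeR with mouse as a term; lines are standard errors and colours mark the adjusted p under 0.05. Sqle, Idi1 and Fasn stand at the top and Abca1 and Abcg1 at the bottom.

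The enzyme sum averaged 575 ± 80.7 CPM in dendritic cells (SD, n = 3 mice with at least 20 such cells), beside 529 ± 46.9 CPM in T cells and 430 ± 64.1 CPM in NK cells (n = 6 each). The 3 mice behind the dendritic cell mean were CAL-101 mice 1 and 2 and control mouse 2. Control mice 1 and 3, with the lowest enzyme sums in T and NK cells, entered the T and NK means but not the dendritic one. Class and mouse therefore cannot be told apart in that difference. Dendritic cells, in those 3 mice, had the highest mean of the 5 classes for 16 of the 31 genes and T cells for 9. Abca1 averaged 129.7 ± 76.04 CPM in neutrophils (SD, n = 5 mice with at least 20 such cells), 78.0 ± 46.3 CPM in monocytes (n = 6) and 46.1 ± 23.9 CPM in dendritic cells (n = 3). These 3 values did not differ beyond their spread, and all lay above the NK mean of Abca1. Abcg1 followed with 144 ± 41.6 CPM in neutrophils, 80.9 ± 36.6 CPM in monocytes and 47.3 ± 27.6 CPM in dendritic cells. Neutrophils, at the top for both exporters, were at the bottom for Sqle (8.45 ± 6.52 CPM), Idi1 (9.01 ± 9.71 CPM) and Fasn (3.86 ± 5.71 CPM). Sqle averaged 36.1 ± 5.83 CPM in dendritic cells and 14.6 ± 11.01 CPM in monocytes. Idi1 averaged 21.6 ± 5.13 CPM in dendritic cells and 17.4 ± 9.96 CPM in monocytes, both below its T cell mean. Fasn averaged 20.2 ± 12.04 CPM in dendritic cells and 14.7 ± 8.75 CPM in monocytes. Scd2 averaged 96.5 ± 72.4 CPM in dendritic cells, 96.0 ± 61.1 CPM in monocytes and 1.94 ± 3.08 CPM in neutrophils. Scd1, scarce in lymphocytes, averaged 11.2 ± 8.42 CPM in monocytes and 7.003 ± 8.43 CPM in dendritic cells. These myeloid levels rest on few cells and, in monocytes, on sums that also held melanoma markers.

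Across deposited clusters 0 to 11, the enzyme sum was highest in cluster 2 (601 ± 58.9 CPM, SD over 6 mice), where the cell-cycle sum was also highest (3777 ± 153 CPM), and in cluster 7 (562 ± 85.6 CPM), where the cell-cycle sum was low (688 ± 168 CPM). It was lowest in cluster 9 (294 ± 53.6 CPM), cluster 0 (297 ± 40.1 CPM) and cluster 10 (307 ± 52.4 CPM). Clusters 2 and 7 did not differ beyond their spread, nor did the 3 lowest. Clusters 3, 4, 8 and 11 also lay within the spread of clusters 2 and 7 (521 ± 46.5, 503 ± 66.2, 515 ± 79.7 and 485 ± 60.9 CPM). Clusters 1 and 6 lay within that of the 3 lowest (373 ± 42.6 and 331 ± 38.3 CPM). Clusters 1 to 5 held mostly T-labelled cells, and clusters 0, 7, 8 and 9 mostly NK-labelled cells. Their mean enzyme sums ranged from 373 to 601 CPM over clusters 1 to 5 and from 294 to 562 CPM over clusters 0, 7, 8 and 9.

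The enzymes did not all peak in the same cluster. Cluster 4 was the highest of the 12 for 10 genes: Hmgcs1, Sqle, Cyp51, Hsd17b7, Dhcr7, Srebf1, Srebf2, Scap, Acaca and Acly. Cluster 2 was the highest for 7 genes: Acat2, Idi1, Fdft1, Nsdhl, Ebp, Stard4 and Fasn. Only the first place of Srebf2 lay clear of the next cluster by the SD of both (149 ± 12.01 CPM in cluster 4 and 116 ± 6.07 CPM in cluster 1), and the other 16 first places were within that spread. Hmgcs1, for example, averaged 64.4 ± 12.3 CPM in cluster 4 and 63.98 ± 7.02 CPM in cluster 2. Cyp51 averaged 104 ± 21.97 CPM in cluster 4 and 75.5 ± 10.9 CPM in cluster 2, whereas Idi1 averaged 28.03 ± 6.14 CPM in cluster 4 and 68.5 ± 15.2 CPM in cluster 2. Fdps, which makes farnesyl diphosphate from the product of Idi1, averaged 36.1 ± 6.56 CPM in cluster 4 and 96.2 ± 16.6 CPM in cluster 2. Cluster 1 showed the same split at a lower level, with 78.3 ± 17.8 CPM of Cyp51 but 19.3 ± 4.47 CPM of Idi1 and 24.9 ± 4.21 CPM of Fdps. Clusters 1 and 4 were also the T cell clusters richest in the nuclear RNA Malat1, with 14028 and 10956 CPM against 3635 to 4639 CPM in clusters 2, 3 and 5. Their cells had a median of 2471 to 5491 UMIs and 11.4% to 18.3% mitochondrial UMIs per mouse, against 12778 to 32067 UMIs and 2.70% to 3.43% in clusters 2, 3 and 5. The part of RNA quality in the split was not tested.

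**Figure D5:**
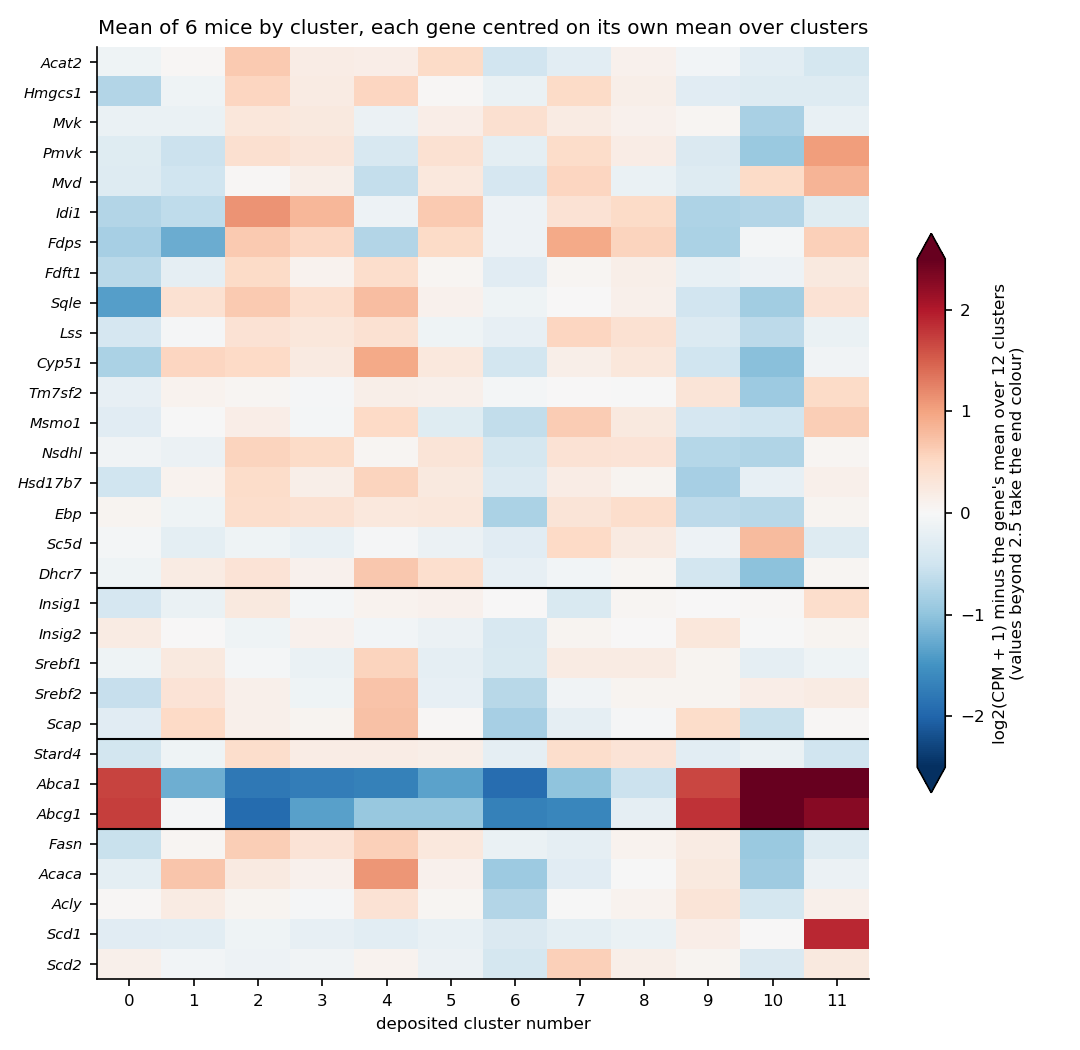
Level of each listed gene in deposited clusters 0 to 11, as the mean log2(CPM + 1) over 6 mice minus that gene's mean over the 12 clusters; red is above and blue below the gene's own mean, and values beyond the scale take its end colour. Abca1 and Abcg1 are red in clusters 0, 9, 10 and 11, Idi1 and Fdps are red in clusters 2, 3 and 5 and blue or near their mean in clusters 1 and 4, and Cyp51, Srebf2, Scap and Acaca are red in both clusters 1 and 4.

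Within clusters, calls between the groups were few. In cluster 0, 3 of 30 genes were called, against 5.53% of all genes. Fdps had 49.0, 36.8 and 36.5 CPM there in CAL-101 mice, against 20.4, 35.2 and 23.2 CPM in control mice. Idi1 had 25.9, 18.03 and 20.6 CPM in CAL-101 mice, against 12.7, 17.9 and 12.6 CPM in control mice. Both were higher in every CAL-101 mouse, control mouse 2 being close to the lowest of them (Fdps 0.64, adjusted p = 0.0460; Idi1 0.61, adjusted p = 0.0413, edgeR). Abcg1 in cluster 0 had 32.7, 36.8 and 41.7 CPM in CAL-101 mice, against 50.2, 41.4 and 49.8 CPM in control mice. It was called lower with a marginal overlap (-0.40, adjusted p = 0.0444). Without CAL-101 mouse 1, CAL-101 mouse 3, control mouse 1 or control mouse 3, Idi1 (0.38, 0.66, 0.53 and 0.51) and Fdps (0.42, 0.73, 0.50 and 0.55) missed the threshold. Abcg1 missed it without CAL-101 mouse 1 (-0.27), CAL-101 mouse 2 (-0.42), control mouse 1 (-0.35) or control mouse 3 (-0.36). Without control mouse 2 all 3 passed (Fdps 0.93, adjusted p = 0.00206; Idi1 0.82, adjusted p = 0.00731; Abcg1 -0.50, adjusted p = 0.0139, edgeR).

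In cluster 1, 2 of 29 genes were called (11.7% of all genes were). Hmgcs1, which makes the substrate of the mevalonate step and carries the sterol regulatory element printed above, had 48.0, 45.6 and 45.8 CPM in CAL-101 mice, against 34.9, 38.1 and 32.4 CPM in control mice (0.38, adjusted p = 0.0393, edgeR). Insig2 had 11.9, 13.9 and 16.1 CPM in CAL-101 mice, against 19.9, 17.8 and 22.2 CPM in control mice (-0.55, adjusted p = 0.0413). Neither gene's groups overlapped, but DESeq2 called neither, and both missed the threshold without any 1 mouse other than control mouse 2 (0.31 to 0.41 for Hmgcs1 and -0.66 to -0.47 for Insig2). Cluster 2 gave 1 call of 29 (12.6% of all genes were called), Mvk, with 11.1, 11.5 and 10.8 CPM in CAL-101 mice, against 13.1, 16.9 and 13.8 CPM in control mice (-0.44, adjusted p = 0.0379). Mvk missed the threshold there without CAL-101 mouse 1 (-0.44), CAL-101 mouse 2 (-0.45), CAL-101 mouse 3 (-0.42) or control mouse 3 (-0.47). Cluster 3 gave 1 call of 29 (6.76% of all genes were called), Hmgcs1, with 58.1, 57.7 and 57.1 CPM in CAL-101 mice, against 41.6, 46.2 and 42.1 CPM in control mice (0.34, adjusted p = 0.0419). It missed the threshold without any 1 mouse other than control mouse 2 (0.31 to 0.35). Clusters 4 to 9 and 11 gave no call among the listed genes by edgeR, with 6, 0, 0, 7, 0, 0 and 0 genes at an unadjusted p under 0.05 in clusters 4, 5, 6, 7, 8, 9 and 11. Of all genes 8.28% were called in cluster 4, 5.23% in cluster 5, 1.40% in cluster 6, 1.32% in cluster 7, 0.459% in cluster 8, 0.628% in cluster 9 and none in cluster 11.

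Without control mouse 2 more listed genes were called within clusters by edgeR. Cluster 4 then had 7 higher (10.0% of all genes were called in either direction): Hmgcs1, Sqle, Cyp51, Msmo1, Dhcr7, Fasn and Acaca. Cluster 2 had 5 higher and 1 lower (18.3% of all genes), and cluster 1 had 4 higher and 1 lower (14.2%). Cluster 3 had 4 higher (10.6%). Among the clusters of mostly NK-labelled cells, cluster 0 had 4 higher and 1 lower (5.22%), cluster 7 had 3 higher (3.75%) and cluster 8 had 4 higher and 1 lower (6.44%). Clusters 5, 6, 9 and 11 again gave no call among the listed genes. Fasn was among the higher genes in clusters 1, 2, 3, 4 and 8, and Cyp51 in clusters 0, 1, 4, 7 and 8.

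Other lipid genes, from lists of the neighbouring pathways, were called in T cells at mixed sign, beside 9.46% higher and 9.63% lower of all genes. Among 17 tested genes of fatty acid elongation and desaturation, 3 were higher and 2 lower, led by Acss2 (acetyl-CoA from acetate, -0.97, adjusted p = 0.000318, edgeR), Fads2 (the delta-6 desaturase, 1.89, adjusted p = 0.00425) and Fads1 (0.59, adjusted p = 0.00909). Of 20 genes of glycerolipid and phospholipid synthesis, 1 was higher and 3 lower, led by Pcyt1a (the rate-setting step to phosphatidylcholine, -1.13, adjusted p = 0.000614), Agpat2 (-0.37, adjusted p = 0.0108) and Agpat1 (0.35, adjusted p = 0.0138). Of 18 genes of the LXR system and cholesterol handling, 2 were higher and 4 lower, led by Abca7 (-0.52, adjusted p = 0.0011), Osbpl2 (-0.42, adjusted p = 0.0107) and Rxra, the partner of the LXR receptors (-1.72, adjusted p = 0.0125). Smaller lists gave Fntb higher (1 of 14 isoprenoid genes; 0.31, adjusted p = 0.0212), and Acaa2 and Acadvl lower (2 of 15 fatty acid oxidation genes; -0.32, adjusted p = 0.00394 and -0.37, adjusted p = 0.00556). In NK cells none of these lists had a call by edgeR.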

How the data were processed

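The deposited matrices hold raw counts of UMIs per gene and cell from droplet 3′ libraries. Per the file headers, the authors made them with Cell Ranger 7.1.0, and the submitters' processing notes name mm10 and Seurat. The cell type labels and cluster numbers are the authors' own, and no source used here says how cells were labelled. No doublet caller was run. UMIs were summed per mouse over the T labels (merged), the NK label, the monocyte label and each of 12 clusters with at least 20 cells in every mouse.

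Sums were tested over all genes with edgeR 4.0.16 (TMM scaling, filterByExpr, quasi-likelihood), adjusted by Benjamini-Hochberg, with calls at an adjusted p under 0.05. T and NK cells of 1 mouse were compared with mouse as a term, and the difference of effects with limma 3.58.1 (prior count 2). DESeq2 1.42.0, other scaling, no filter, fewer cells and each mouse left out were alternatives. The edgeR and limma steps were tested on simulated data. UMI totals per T sum were 53687665 to 87764290, and per NK sum 5512966 to 38372671.

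The genes and lists were chosen with earlier results of these data known. Values in every mouse are given for genes past the threshold, SREBP control, the exporters and the desaturases, and for the largest cluster call each way. Cyp51, Fasn and the further cluster calls were named after their values were seen. The choice to print counts without control mouse 2 was also made then. The surface protein counts were not used for results. The result of 1 further gene list is not reported here.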

Additional observations from a re-analysis of the deposited data

How the results depend on the processing

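The count of listed genes called between CAL-101 and control mice depended on the mice and settings. The share of all genes called was counted for only some of these alternatives. The counts below therefore describe the settings and are not set against genes at large. In T cells (2 higher, 1 lower), leaving out each mouse gave 0 to 9 higher and 0 to 2 lower. DESeq2, upper quartile scaling and no filter on low counts each gave 3 lower (Mvk, Abca1 and Abcg1). No filter, leaving out cells with over 20% mitochondrial or under 1000 UMIs, and clusters 1 to 5 alone each gave 1 higher (Dhcr7). In NK cells (0 and 0), leaving out each mouse gave 0 to 7 higher and 0 to 1 lower, DESeq2 gave 1 lower (Abcg1), and no filter gave 1 higher (Cyp51) and 1 lower (Abcg1). With the replicate number as a block, T cells gave 0 higher and 0 lower, and NK cells gave 1 higher (Hmgcs1) and 1 lower (Abcg1). The numbers do not pair the mice: deviations of same-numbered mice correlated at -0.252 to 0.0662. In monocytes and for the difference between T and NK effects the count was 0 under every alternative run. The T against NK comparison gave 11 to 17 higher and 4 to 5 lower, without each mouse 15 to 17 higher and 5 lower, and the log2 ratio of Msmo1 turned to 0.20 after thinning. The cause of these changes was not tested. Scd1 in lymphocytes and Abca1 in T cells rested on few UMIs.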
